A study of Caenorhabditis elegans with 10 samples.

Results

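The 10 genes described here belong to the unfolded protein response of the endoplasmic reticulum (ER) of Caenorhabditis elegans, the pathway that adjusts protein folding capacity when unfolded proteins accumulate in that compartment. They were chosen by name: the sensors ire-1, pek-1 and atf-6, the transcription factor gene xbp-1, the BiP chaperone genes hsp-3 and hsp-4, the calreticulin gene crt-1, the protein disulfide isomerase genes pdi-1 and pdi-2, and sel-1, a gene of ER-associated degradation. They are 10 of the 40857 gene symbols of the deposited table, and where a symbol has several transcripts the one with the highest mean level stands for the gene. Messenger RNA had been sequenced from whole nematodes, about 3000 worms per sample, at the L4 or preadult stage. There were 5 genotypes: math-33(tm3561), daf-2(e1370);math-33(tm3561), daf-2(e1370), daf-16(mu86);daf-2(e1370) and the wild type N2. MATH-33 is a deubiquitylating enzyme, DAF-2 is the worm's receptor for insulin-like ligands, which e1370 impairs in a temperature-sensitive way, and DAF-16 is the FOXO transcription factor that this receptor restrains. For every genotype, 1 library came from worms moved to 25 °C late in larval life and held there for 22 hr, and the other from worms left at 15 °C throughout. With 1 library for each genotype and temperature, 2 libraries can be compared in level but not tested, and the tests below rest on the spread of all 10 libraries around a shared genotype and temperature pattern.

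In the worm, IRE-1 is an ER membrane kinase and endoribonuclease that removes a short intron from xbp-1 messenger RNA, and the spliced message encodes the active XBP-1 transcription factor. PEK-1 is the worm homolog of the kinase PERK, which slows translation by phosphorylating a translation initiation factor, and ATF-6 is a membrane-bound transcription factor. Genes that XBP-1 is known to raise include hsp-4, whose reporter is the standard worm readout of ER stress, whereas its close relative hsp-3 is abundant without stress. Splicing of xbp-1 cannot be read from a table of transcript levels, so the values below are amounts of message and not activity of the sensors.

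Levels are FPKM (fragments per kilobase of transcript, scaled to sequencing depth), a scale per length on which genes can be compared. Depth recovered from the values was between 25.2 and 35.2 M reads per library, taken as 12.6 to 17.6 M read pairs. In the libraries that carry tm3561, math-33 itself stood between 13.9 and 15.9 FPKM, against 59.8 to 79.3 FPKM in the other 6 libraries. The listed daf-16 transcripts were higher in the libraries labelled daf-16(mu86);daf-2(e1370), at 164 and 182 FPKM for the transcript of 906 bases, against 81.3 to 135 FPKM in the other 8 libraries. The table does not give the extent of the mu86 deletion, so these daf-16 levels do not check that label. The libraries also differed in markers of stage and germline. The summed level of 29 molting and apical matrix genes was lowest in math-33 at 25 °C (1821 FPKM) and highest in daf-16;daf-2 at 15 °C (5417 FPKM). Of these sums, col-19 held 1216 FPKM in math-33 at 25 °C and 114 FPKM in daf-16;daf-2 at 15 °C. The yolk genes (5 measured), the oocyte genes (12) and the sperm genes (18) all had their highest sum in math-33 at 25 °C, and no marker of these lists was at 0 in every library. Summed FPKM of the sperm list ran between 359 and 2880 in 25 °C libraries and between 175 and 1112 in 15 °C libraries. That of the yolk list ran between 2772 and 12311 in 25 °C libraries and between 1791 and 5976 in 15 °C libraries.

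The 10 genes differed widely in level. The most abundant was crt-1 with a mean of 1094 FPKM over the 10 libraries, followed by hsp-3 (684), pdi-2 (564), xbp-1 (281), pdi-1 (175), hsp-4 (106), sel-1 (48.14), ire-1 (23.2), pek-1 (14.1) and atf-6 (9.54). The sensors were thus the least abundant messages, and the calcium-binding lectin chaperone, the constitutive BiP and an isomerase the most abundant. The ranges of some neighbours in this order overlapped: pdi-2 reached 753 FPKM in its highest library while hsp-3 stood at 508 FPKM in its lowest, and hsp-4 reached 149 FPKM against a lowest pdi-1 value of 140.1 FPKM. Across libraries xbp-1 varied most, with its highest value 2.72 times its lowest, followed by pdi-2 at 2.69 times and hsp-4 at 2.36 times. The same ratio was between 1.53 and 1.85 for the other 7 genes. Because hsp-3 and hsp-4 encode closely similar proteins and the labels do not state how shared reads were handled, their separate levels carry that uncertainty.

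**Figure D1:**
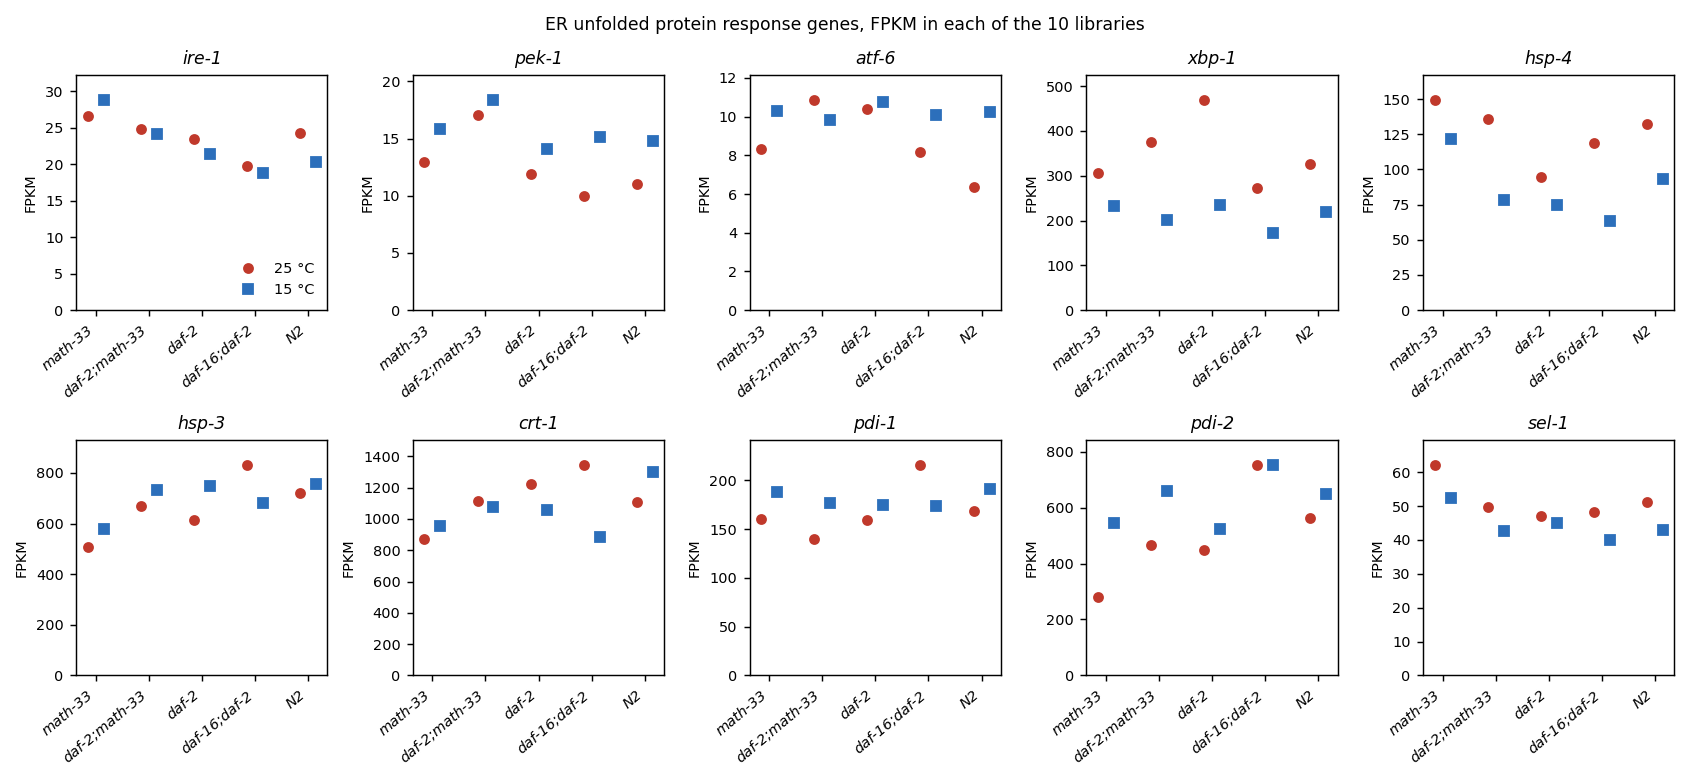
FPKM of each of the 10 genes in the 10 libraries, with 25 °C libraries as circles and 15 °C libraries as squares; each point is 1 library and each panel has its own axis starting at 0. In the xbp-1 panel all circles (273 to 469.7 FPKM) lie above all squares (172 to 235 FPKM), and in the pdi-2 panel the math-33 library at 25 °C lies lowest, at 279.5 FPKM.

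Growth at 25 °C came with more xbp-1 and hsp-4 message. In the linear model across all 10 libraries 2 of the 10 genes were called higher at 25 °C and 0 lower, at a limma p-value adjusted by Benjamini-Hochberg over all 16085 genes tested under 0.05. Over all genes 14.6% were called higher, 4.68% lower and 19.3% in either direction, so the share of the 10 genes that was called is close to the background. The median temperature difference was -0.002 for the 10 genes and 0.09 for all genes on the log2(FPKM + 1) scale. Of the calls over all genes, 75.7% were higher at 25 °C, a share that fell to 44.3% when each library was centred on its median, which moved the median of all genes by -0.17, and to 50.2% after quantile normalization, which moved it by -0.13. The differences of xbp-1 and hsp-4 stayed positive and called under both scalings. Stage and tissue markers moved with temperature too: 5 of 5 yolk genes, 15 of 18 sperm genes and 8 of 12 oocyte genes were called higher at 25 °C, and 3 of 8 intestine genes, 3 of 7 body muscle genes and 1 of 8 neuron genes lower. Of the 29 molting genes 1 was called higher and 3 lower, while 23 lay below 0 with a median of -0.67. The part of these markers in the values of xbp-1 and hsp-4 was not tested. In whole nematodes a change in the number of cells of a type and a change in RNA per cell cannot be told apart.

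The transcription factor gene xbp-1 (chromosome III, 4193957 to 4195091 of the table's build ce10) showed the clearest separation. At 25 °C it stood at 306 FPKM in math-33, 376 in daf-2;math-33, 469.7 in daf-2, 273 in daf-16;daf-2 and 326 in N2. At 15 °C the corresponding FPKM values were 232 in math-33, 201 in daf-2;math-33, 235 in daf-2, 172 in daf-16;daf-2 and 218 in N2. The groups did not overlap, which holds for 3.05% of all genes with every 25 °C library above every 15 °C library, and xbp-1 was the only one of the 10 genes for which it held. Its mean was 350.1 ± 76.6 FPKM at 25 °C and 212 ± 25.9 FPKM at 15 °C (SD over genotypes, n = 5 libraries each). The fitted difference was 0.70 on the log2(FPKM + 1) scale (SE 0.11, limma adjusted p = 0.00988). It kept its call without any single library, with adjusted p between 0.0158 and 0.0470. The size varied with genotype. Within a pair of libraries, 25 °C over 15 °C, xbp-1 was 1.32-fold in math-33 (95% counting interval 1.26 to 1.38), 1.87-fold in daf-2;math-33 (1.79 to 1.96), 1.997-fold in daf-2 (1.92 to 2.07), 1.58-fold in daf-16;daf-2 (1.501 to 1.67) and 1.49-fold in N2 (1.43 to 1.56). These intervals cover counting error only and hold no variation between cultures, so the order of the genotypes has no test.

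The table lists another, shorter xbp-1 transcript of 860 bases beside the one of 1003 bases used here. Its 25 °C over 15 °C ratios were 1.45 in math-33, 1.93 in daf-2;math-33, 2.08 in daf-2, 1.73 in daf-16;daf-2 and 1.42 in N2, the same direction in all 5 genotypes. The transcripts start at the same coordinate and overlap, so these are not separate observations.

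The inducible BiP gene hsp-4 (chromosome II, 7350217 to 7352431) was the other gene called at 25 °C. It stood at 149 FPKM in math-33, 136 in daf-2;math-33, 94.3 in daf-2, 119.003 in daf-16;daf-2 and 132 in N2 at 25 °C. At 15 °C it stood at 121.4 FPKM in math-33, 78.4 in daf-2;math-33, 74.4 in daf-2, 63.3 in daf-16;daf-2 and 93.3 in N2. The groups overlapped, since math-33 at 15 °C lay above daf-16;daf-2 and daf-2 at 25 °C, but within each genotype the 25 °C library was the higher. The mean was 126 ± 20.9 FPKM at 25 °C and 86.2 ± 22.4 FPKM at 15 °C (SD, n = 5 libraries each). The fitted difference was 0.56 (SE 0.11, limma adjusted p = 0.0191). The call was lost, with adjusted p between 0.0513 and 0.0753, when either library of daf-16;daf-2, N2 or daf-2;math-33 was left out.

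Neither sel-1 nor pek-1 passed the threshold. The gene sel-1 (chromosome V, 12560714 to 12563039) encodes an adaptor of the ubiquitin ligase complex that removes misfolded proteins from the ER. It averaged 51.7 ± 6.01 FPKM at 25 °C and 44.6 ± 4.75 FPKM at 15 °C (SD, n = 5 libraries each), a fitted difference of 0.21 (SE 0.08, limma adjusted p = 0.101). It was higher at 25 °C in 5 of 5 genotypes, as were xbp-1 and hsp-4, a pattern that 22.6% of all genes share. When libraries were centred on their medians, 2 of the 10 genes lay above 0 in the daf-2 pair, xbp-1 and hsp-4, so sel-1 no longer did. The kinase gene pek-1 (chromosome X, 11410511 to 11414747) was lower at 25 °C in 5 of 5 genotypes, which 11% of all genes also do. Its values at 25 °C were 12.9 FPKM in math-33, 17.0 in daf-2;math-33, 11.9 in daf-2, 9.94 in daf-16;daf-2 and 11.1 in N2. At 15 °C pek-1 had 15.8 FPKM in math-33, 18.4 in daf-2;math-33, 14.1 in daf-2, 15.1 in daf-16;daf-2 and 14.8 in N2. The fitted difference of pek-1 was -0.31 (SE 0.11, limma adjusted p = 0.0905). It passed the threshold after centring (-0.48, limma adjusted p = 0.0329) and after quantile normalization (-0.47, limma adjusted p = 0.0336).

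The other 6 genes had no common direction. The temperature difference of ire-1 was 0.07 (limma adjusted p = 0.617), of atf-6 -0.21 (0.313), of hsp-3 -0.08 (0.640), of crt-1 0.10 (0.628), of pdi-1 -0.11 (0.491) and of pdi-2 -0.38 (0.109), where each bracket gives the limma adjusted p; the signs of ire-1 and crt-1 turned when libraries were centred. An unadjusted p under 0.05 was reached by 5 of the 10 genes, against 35.5% of all genes. Of the 5 genotypes, daf-16;daf-2 was the 1 in which hsp-3 and pdi-1 were higher at 25 °C, at ratios of 1.22 (interval 1.20 to 1.24) and 1.24 (1.18 to 1.30). In the other 4 genotypes these ratios lay between 0.823 and 0.955 for hsp-3 and between 0.791 and 0.915 for pdi-1. The ratio of crt-1 was above 1 in 3 genotypes, 1.04 in daf-2;math-33, 1.16 in daf-2 and 1.52 in daf-16;daf-2, and below 1 in math-33 (0.913) and N2 (0.855). These differences between genotypes rest on single libraries and were not tested.

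**Figure D2:**
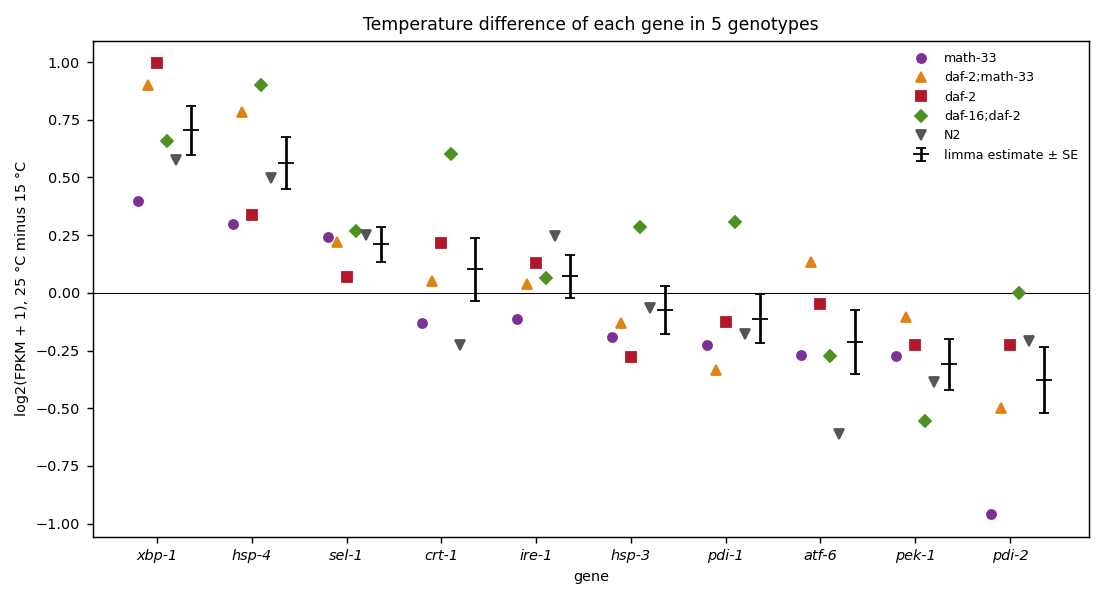
Difference between the 25 °C and the 15 °C library of each genotype on the log2(FPKM + 1) scale for the 10 genes, ordered by the limma estimate, which the black marks show with its standard error. All 5 genotypes lie above 0 for xbp-1, hsp-4 and sel-1 and below 0 for pek-1, whereas pdi-2 ranges between -0.96 in math-33 and 0.00 in daf-16;daf-2.

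The relation between xbp-1 and hsp-4 differed in daf-2 at 25 °C. That library held the highest xbp-1 level of all (469.7 FPKM) and the lowest hsp-4 level among the 25 °C libraries (94.3 FPKM). Its xbp-1 to hsp-4 ratio was 4.98, whereas the other 9 libraries lay between 1.91 and 3.16. The next highest ratio was that of daf-2 at 15 °C (3.16), and the lowest were those of math-33, 2.05 at 25 °C and 1.91 at 15 °C. In daf-2;math-33 the ratio was 2.77 at 25 °C and 2.56 at 15 °C. A ratio of levels in 1 library has no replicate check, and these ratios were not tested.

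**Figure D3:**
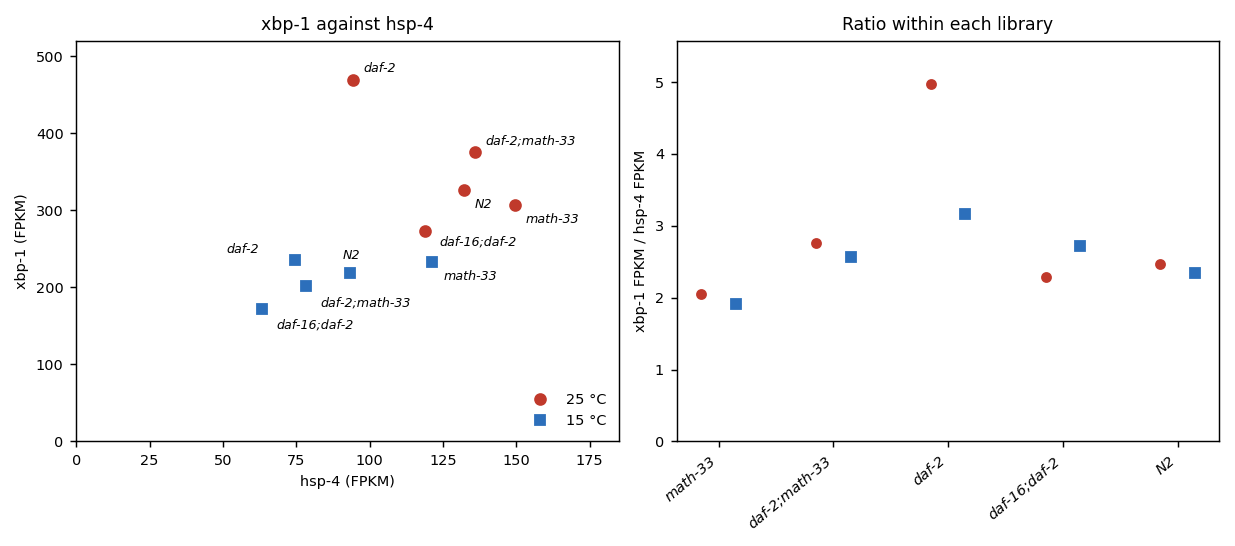
Left, xbp-1 against hsp-4 in FPKM, 1 point per library, with 25 °C as circles and 15 °C as squares; right, the ratio of the same values by genotype. The daf-2 library at 25 °C stands apart in both panels, with a ratio of 4.98 against 1.91 to 3.16 in the other 9 libraries.

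The genes whose pattern over the 10 libraries was most like that of hsp-4 were not other members of the pathway. Likeness was the mean absolute difference of centred log2(FPKM + 1) values over the 10 libraries, among 10066 genes with a mean of at least 5 FPKM. The nearest were rtel-1 (0.08), which encodes a DNA helicase, then B0393.3 (0.09), Y37H2A.1 (0.09), pcf-11 (0.09), which encodes a factor of messenger RNA 3′ end formation, and F55A11.7 (0.10). Among the 10 genes sel-1 came nearest to hsp-4, at rank 1142 with 0.22, followed by xbp-1 at rank 1887 with 0.26. This is a description over 10 libraries that share the temperature contrast.

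The study's comparison for DAF-16 sets daf-2 against the libraries labelled daf-16;daf-2, whose daf-16 message, as given above, was not lower. None of the 10 genes was called between these strains by limma (0 of 10, against 0.0373% of all genes). An unadjusted p under 0.05 was reached by 2 of them, xbp-1 and pdi-2, against 12.2% of all genes. The fitted difference of xbp-1 was 0.61 (SE 0.17, limma adjusted p = 0.273). In single libraries xbp-1 stood 1.72-fold above daf-16;daf-2 in the daf-2 library at 25 °C (interval 1.66 to 1.79) and 1.36-fold at 15 °C (1.30 to 1.44). The isomerase gene pdi-2 went the other way, with a fitted difference of -0.64 (SE 0.23, limma adjusted p = 0.348) and ratios of 0.594 at 25 °C and 0.695 at 15 °C. Past 1.5-fold on the log2(FPKM + 1) scale these were 2 of the 10 genes at 25 °C, against 27.9% of all genes, and 0 at 15 °C, against 25.7%. The daf-2 over daf-16;daf-2 ratio of hsp-4 was 0.793 at 25 °C and 1.18 at 15 °C. Of the 29 molting genes 26 lay below 0 in this contrast, with a median of -0.60 and 0 called, and their part in the values of xbp-1 and pdi-2 was not tested.

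Loss of math-33 in the daf-2 background called none of the 10 genes (0 of 10 by limma, against 0.0124% of all genes), and 1 of them, pek-1, had an unadjusted p under 0.05, against 15.0% of all genes. The kinase gene pek-1 was 1.43-fold in daf-2;math-33 over daf-2 at 25 °C (interval 1.28 to 1.59) and 1.30-fold at 15 °C (1.18 to 1.44), with a fitted difference of 0.42 (SE 0.17, limma adjusted p = 0.318). The daf-2;math-33 libraries held the highest pek-1 levels at each temperature, 17.0 FPKM at 25 °C and 18.4 FPKM at 15 °C. How many of all genes were highest in these libraries was not counted. At 25 °C xbp-1 was lower in daf-2;math-33 (376 FPKM) than in daf-2 (469.7 FPKM), a ratio of 0.800 (0.772 to 0.830), while hsp-4 was 1.44-fold higher (1.37 to 1.51). No gene of the 10 passed 1.5-fold in either pair, against 31.1% of all genes at 25 °C and 24.0% at 15 °C. The fitted differences of xbp-1 (-0.27, limma adjusted p = 0.510) and hsp-4 (0.30, limma adjusted p = 0.498) did not pass the threshold. Markers differed in this contrast: 18 of 18 sperm genes lay above 0 with a median of 1.87, and 5 of 5 yolk genes with a median of 1.04, though 0 of either list were called. Between single libraries, daf-2;math-33 exceeded daf-2 by more than 1.5-fold for 18 of the 18 sperm genes at 25 °C and for 17 at 15 °C. Their part in the values of pek-1, xbp-1 and hsp-4 was not tested.

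The single mutant math-33 against N2 compares strains with an intact receptor. Again 0 of the 10 genes were called by limma, against 0.441% of all genes, and 2 had an unadjusted p under 0.05, against 18.3%. Among the markers 4 of 5 yolk genes were called higher in math-33. Of the 29 molting genes 28 lay below 0 (median -1.16), and 18 of 18 sperm genes lay above 0 (median 1.42). Of 12 oocyte genes 11 lay above 0, while 7 of 7 body muscle genes and 7 of 8 intestine genes lay below 0. In these further lists 0 genes were called. The part of all these markers in the following values was not tested. The 2 of the 10 genes with an unadjusted p under 0.05 were abundant folding genes, both lower in math-33. For hsp-3 (chromosome X, 6089356 to 6091728) the fitted difference was -0.45 (SE 0.17, limma adjusted p = 0.234). For pdi-2 it was -0.63 (SE 0.23, limma adjusted p = 0.226). At 25 °C hsp-3 stood at 508 FPKM in math-33 and 722 FPKM in N2, and at 15 °C at 579 FPKM in math-33 and 756 FPKM in N2. Both math-33 libraries were below the other 8 libraries for hsp-3, though the share of all genes with such a pattern was not counted. The calreticulin gene crt-1 (chromosome V, 6099155 to 6100492) was also lower in math-33 at each temperature, at 871 FPKM against 1110.4 FPKM in N2 at 25 °C and at 954 FPKM against 1299 FPKM in N2 at 15 °C. Its fitted difference of -0.40 (SE 0.21) did not pass the threshold (limma adjusted p = 0.368). Other genes leaned the other way. In math-33 over N2, sel-1 was 1.21-fold at 25 °C (interval 1.14 to 1.30) and 1.22-fold at 15 °C (1.14 to 1.32). For ire-1 the ratio was 1.10 at 25 °C (1.01 to 1.19) and 1.42 at 15 °C (1.30 to 1.55). For hsp-4 it was 1.13 at 25 °C (1.08 to 1.18) and 1.30 at 15 °C (1.24 to 1.37). The ratios of pek-1 and atf-6 were also above 1, but at 15 °C their intervals included 1. That of xbp-1 was 0.940 at 25 °C and 1.06 at 15 °C. The limma adjusted p-values of sel-1 and ire-1 were 0.281 and 0.318. The ire-1 transcript used (chromosome II, 8112618 to 8124788) spans the gene unc-105, whose transcripts averaged 2.28 to 4.69 FPKM. The math-33 libraries held the highest ire-1 and sel-1 levels at each temperature, a pattern whose share over all genes was not counted either.

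The isomerase gene pdi-2 (chromosome X, 4524211 to 4526176) was lowest in math-33 at 25 °C. Worm PDI-2 serves as a subunit of the prolyl hydroxylase that modifies collagen, beside its role in disulfide formation. Its level at 25 °C was 279.5 FPKM in math-33, 467 in daf-2;math-33, 447 in daf-2, 753 in daf-16;daf-2 and 562 in N2. At 15 °C it was 544 FPKM in math-33, 661 in daf-2;math-33, 523 in daf-2, 752 in daf-16;daf-2 and 649 in N2. The math-33 library at 25 °C was the lowest of all, at 0.497 of N2 (0.482 to 0.513) and 0.514 of math-33 at 15 °C (0.498 to 0.530). In these pairs pdi-2 was the 1 gene of the 10 past 1.5-fold, against 27.6% of all genes between math-33 and N2 at 25 °C and 30.7% between 25 and 15 °C in math-33. At 15 °C the math-33 to N2 ratio of pdi-2 was 0.838, and no gene of the 10 passed 1.5-fold (28.8% of all genes). The 3 listed pdi-2 transcripts gave ratios of 0.50, 0.50 and 0.50 between math-33 and N2 at 25 °C and overlap each other. The related gene pdi-1 (chromosome III, 3699834 to 3701437) differed little there: 161 FPKM in math-33 and 169 FPKM in N2 at 25 °C, and 188 FPKM in math-33 and 191 FPKM in N2 at 15 °C.

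Of the 8 listed genes of oxidative folding and prolyl hydroxylation, dpy-18 and phy-2 had the lowest differences in math-33 against N2. That contrast includes the math-33 library at 25 °C. Genes picked by it tend to be low in that library, so their values are no separate check on pdi-2. The collagen prolyl hydroxylase catalytic subunit gene dpy-18 stood at 28.8 FPKM in math-33 and 102 FPKM in N2 at 25 °C, and at 82.6 FPKM in math-33 and 100.5 FPKM in N2 at 15 °C. Its relative phy-2 stood at 16.2 FPKM in math-33 and 53.5 FPKM in N2 at 25 °C, and at 55.9 FPKM in math-33 and 62.2 FPKM in N2 at 15 °C. The prolyl hydroxylase gene phy-3 of the same list went the other way, with its highest value of the 10 libraries in math-33 at 25 °C, 7.64 FPKM, against 5.27 FPKM in N2. The summed level of the molting and apical matrix list was also lowest there, 1821 FPKM in math-33 and 3447 FPKM in N2 at 25 °C, with 27 of its 29 genes more than 1.5-fold lower. Its gene col-19 went the other way, with 1216 FPKM in math-33 and 410 FPKM in N2 at 25 °C. The larger part of the math-33 sum was thus col-19. These libraries differ in the levels of those stage markers, and the part of stage in the pdi-2, dpy-18 and phy-2 values was not tested.

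**Figure D4:**
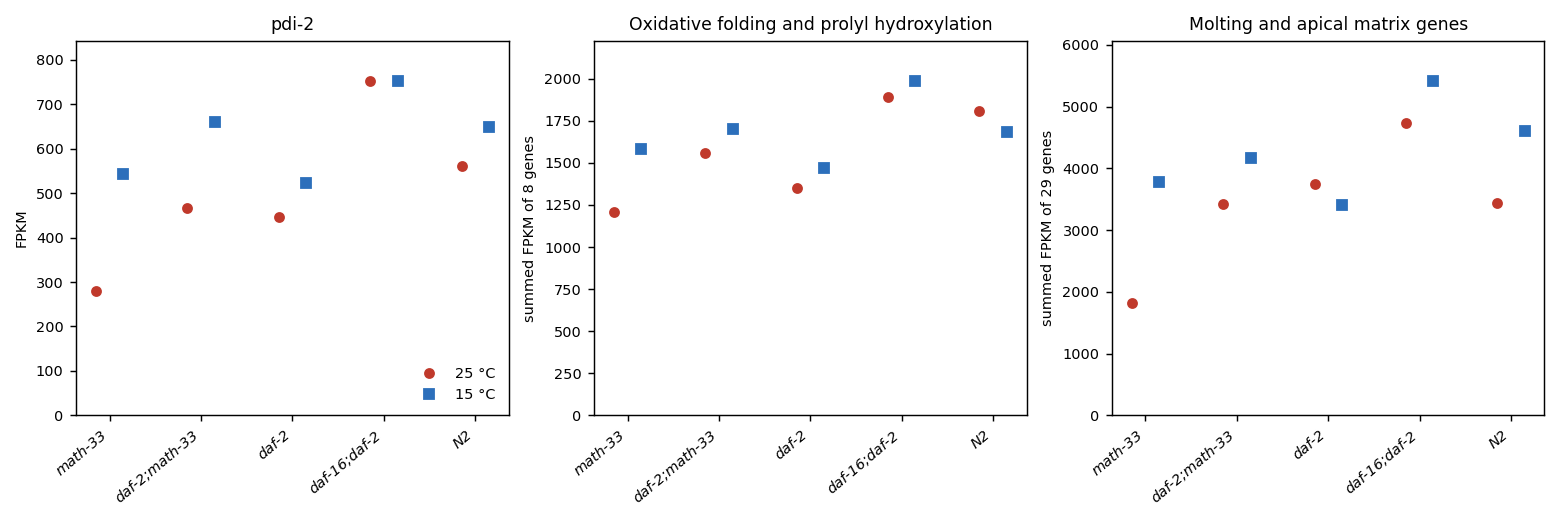
From left to right, FPKM of pdi-2, summed FPKM of the 8 oxidative folding and prolyl hydroxylation genes and summed FPKM of the 29 molting and apical matrix genes in each of the 10 libraries (circles 25 °C, squares 15 °C, 1 point per library). The math-33 library at 25 °C is the lowest point of every panel, at 279.5, 1209 and 1821 FPKM. In the right panel 1216 of its 1821 FPKM are col-19.

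In daf-2 against N2 none of the 10 genes was called (0 of 10 by limma) and none had an unadjusted p under 0.05, against 0 called and 13.6% with an unadjusted p under 0.05 over all genes. In libraries at 25 °C atf-6 (chromosome X, 12480880 to 12484204) was the 1 gene past 1.5-fold, with 10.38 FPKM in daf-2 and 6.355 FPKM in N2 (1.63-fold, interval 1.34 to 1.996), against 37.6% of all genes. That atf-6 value in N2 is the lowest of the 10 libraries, and the other 9 lay between 8.19 and 10.9 FPKM. At 15 °C no gene of the 10 passed 1.5-fold (16.9% of all genes). Levels of hsp-4 were lower in daf-2 than in N2 at both temperatures, at ratios of 0.713 at 25 °C and 0.798 at 15 °C, with a fitted difference of -0.40 (SE 0.18, limma adjusted p = 0.383). Sperm genes lay below 0 in 18 of 18 cases in this contrast, with a median of -0.95 and 0 called, and their part in these values was not tested.

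The difference between the effect of math-33 loss in the daf-2 background and its effect beside N2 was tested as an interaction. It called 0 of the 10 genes, as it called 0 of all genes. An unadjusted p under 0.05 was reached by 1 gene, pdi-2, against 8.64% of all genes, with an interaction of 0.83 (SE 0.32, limma adjusted p = 0.571). Within genotypes, the share of all genes past 1.5-fold between 25 and 15 °C was 27.8% in daf-2;math-33, 33.2% in daf-2, 33.8% in daf-16;daf-2 and 33.7% in N2. Against these shares, the genes of the 10 past 1.5-fold were xbp-1 and hsp-4 in daf-2;math-33, xbp-1 in daf-2, xbp-1, hsp-4 and crt-1 in daf-16;daf-2, and atf-6, which was lower at 25 °C, in N2. In daf-16;daf-2, crt-1 no longer passed after quantile normalization, and after centring neither crt-1 nor xbp-1 did, while pek-1 passed as lower under both.

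Of 74 other genes listed for the same pathway and related functions, 73 were in the table and 68 passed the expression filter. In the temperature contrast 2 of these 68 were called higher and 5 lower by limma, where 14.6% of all genes were called higher and 4.68% lower, and their median difference was -0.05 against 0.09 for all genes. The prolyl hydroxylase gene phy-3 rose by 1.33 on the log2(FPKM + 1) scale (limma adjusted p = 0.00724) and hrdl-1, a relative of an ER ubiquitin ligase gene, by 0.34 (limma adjusted p = 0.0371). The peptidyl-prolyl isomerase gene fkb-5 had a difference of -1.68 (limma adjusted p = 0.0304), with 9.15 FPKM in math-33, 35.05 in daf-2;math-33, 56.7 in daf-2, 83.7 in daf-16;daf-2 and 44.1 in N2 at 25 °C. At 15 °C fkb-5 lay between 96.2 and 146 FPKM in the 5 libraries. The others called lower were cdc-48.1, a segregase gene that extracts proteins from the ER membrane (-0.36, limma adjusted p = 0.0272), the oligosaccharyltransferase genes ostd-1 (-0.36, limma adjusted p = 0.0402) and stt-3 (-0.29, limma adjusted p = 0.0391), and abu-14 (-0.97, limma adjusted p = 0.0365), of a family named for its activation when the response is blocked. The related gene cdc-48.2 was not called, with 193 to 263 FPKM at 25 °C and 204 to 257 FPKM at 15 °C. By list, 0 of 17 translocation and N-glycosylation genes were called higher and 2 lower, and 1 of 16 degradation genes was called in each direction. Among 13 chaperone and glycoprotein folding genes 0 were called higher and 1 lower, and among 4 further regulators, which include the tRNA ligase gene rtcb-1 that joins xbp-1 exons, 0 were called.

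Between genotypes none of the 68 genes was called in any contrast by limma, and an unadjusted p under 0.05 was reached by 10 for daf-2 over daf-16;daf-2, by 4 for daf-2;math-33 over daf-2, by 13 for math-33 over N2 and by 9 for daf-2 over N2. Over all genes that share was 12.2%, 15.0%, 18.3% and 13.6% in the same order, so these counts are near or under the background. In math-33 against N2 the lists are described by their medians, with no test between them. The median was -0.37 for chaperones and glycoprotein folding (9 of 13 below 0), -0.32 for oxidative folding and prolyl hydroxylation (7 of 8 below 0) and -1.004 for the abu genes (10 of 10 below 0). It was -0.08 for translocation and N-glycosylation (13 of 17 below 0), -0.01 for the further regulators (2 of 4 below 0), 0.18 for degradation genes (14 of 16 above 0) and 0.06 for all genes. Differences of named genes in this contrast were -1.03 for dpy-18, -0.91 for phy-2, -1.17 for fkb-5, -1.10 for fkb-4 and -1.55 for abu-14, with limma adjusted p-values of 0.255, 0.287, 0.371, 0.242 and 0.140. The abu genes summed to 103 FPKM in math-33 and 459 FPKM in N2 at 25 °C, and to 354 FPKM in math-33 and 534 FPKM in N2 at 15 °C. As with pdi-2, these values lie beside the low molting list of math-33 at 25 °C, whose part in them was not tested.

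**Figure D5:**
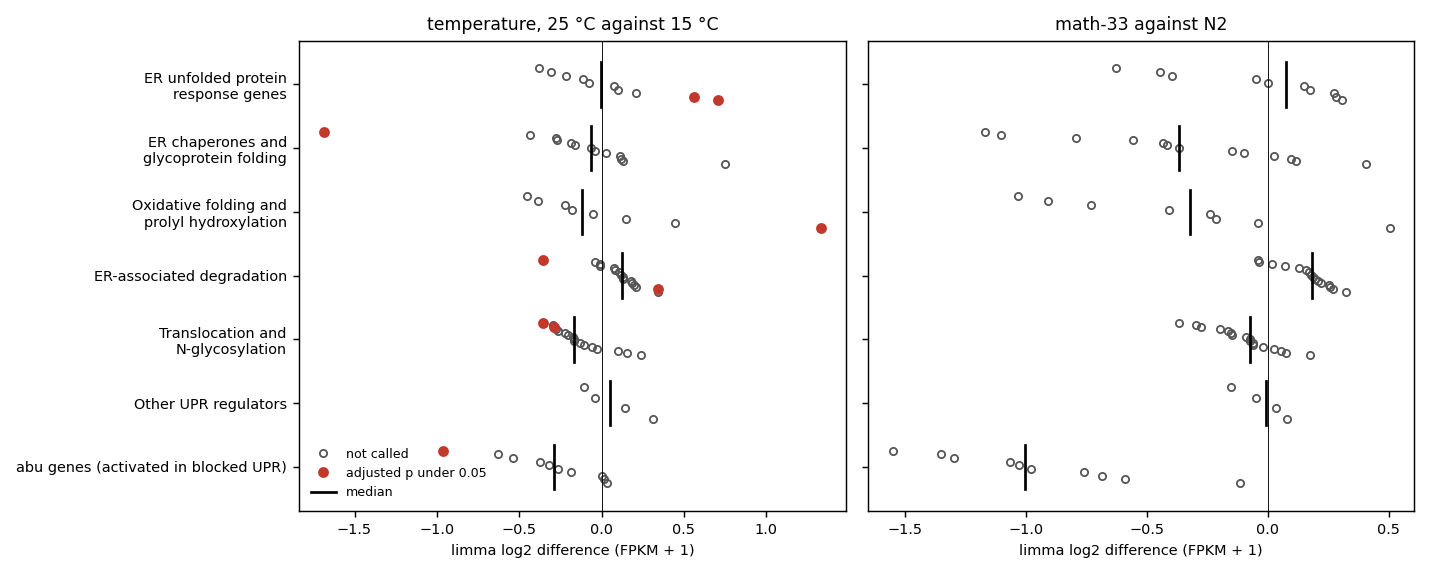
Limma differences on the log2(FPKM + 1) scale for the 10 genes and 6 lists of other genes of the same pathway and related functions, at 25 °C against 15 °C (left) and in math-33 against N2 (right). Each circle is 1 gene, filled where the adjusted p is under 0.05, and the bars are medians; 9 circles are filled on the left and 0 on the right.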

How the data were processed

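The authors deposited FPKM values per transcript for 10 stranded, paired-end poly(A) libraries of whole worms (RNA integrity above 8.0), per the labels' protocols. STAR, HOMER, edgeR and build ce10 stand in the submitters' processing notes; their roles, their versions and the handling of shared reads are not stated there. The table holds 47467 transcripts. Of these, 1104 carry no gene name (1.72 to 1.97% of a library's summed FPKM) and were left out.

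The deposited FPKM values were analysed as log2(FPKM + 1), which understates changes of low genes. The 16085 genes that reached 1 FPKM in 2 or more libraries, all 10 genes described among them, were fitted with limma 3.58.1 (mean-variance trend) in R 4.3.3, with additive genotype and temperature terms and 4 residual degrees of freedom. Benjamini-Hochberg adjustment ran over all genes, with calls at 0.05. No group has replicate cultures, so the spread is that of libraries around the additive pattern. Library pairs were given as FPKM ratios and counted at 1.5-fold on the log2(FPKM + 1) scale. Read counts were recovered from the FPKM steps, and 100% of the values checked came out whole within a tolerance of 0.01% plus rounding. Read pairs were taken by halving, although odd counts occurred too, with 1.52 to 1.92 even counts for each odd one among small counts. Exact 95% intervals from the rounded pairs cover counting error only. The fit was run on simulated data with independent noise and added shifts larger than any fitted difference of the 10 genes. Those data held no temperature response particular to a genotype, so they do not test the fit for differences of the size reported here.

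Of 162 genes listed for comparison, 151 matched a name of the table and 9 a RefSeq locus tag (assembly WBcel235, used for names only). Named genes were all 10 described, in each list those called or with the largest differences, and the 5 nearest to hsp-4 in pattern. The 10 genes, lists and tests were chosen with earlier results of these data known. Alternatives were other pseudocounts, filters, scalings, transcript choices and each library left out.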

Additional observations from a re-analysis of the deposited data

How the results depend on the processing

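Of 60 values (10 genes in 6 contrasts) under 16 alternatives each, 951 of 960 stayed on their side of the threshold and 0 called values turned sign, while 50 uncalled values did. Only 2 of the 60 values were called as reported, so the rest could change only by gaining a call. Few genes of any kind pass in the genotype contrasts, so the 951 says little about stability. Of the changes, 6 were calls lost and 3 were calls gained. The 2 genes called at 25 °C became 4 when each library was centred on its median, where pek-1 and pdi-2 (-0.55, limma adjusted p = 0.0271) joined. Over all 16085 genes that centring gave 1381 calls higher and 1734 lower, against 2346 and 753 as reported. Leaving out 1 library gave between 1 and 2, and hsp-4 was the gene lost, without either library of daf-16;daf-2, N2 or daf-2;math-33. In the additive fit, leaving out either library of a genotype gives the same temperature estimate. The 2 leave-outs of a genotype are therefore not separate checks for temperature, and the 6 calls lost come from such pairs. In genotype contrasts and the interaction, 0 of the 10 genes were called under every alternative run. Fewer libraries also change the fitted spread, and the counts over all genes ranged between 821 and 3415 for temperature (3099 as reported), 0 and 169 for daf-2 over daf-16;daf-2 (6), 1 and 160 for daf-2;math-33 over daf-2 (2), 3 and 263 for math-33 over N2 (71) and 0 and 296 for daf-2 over N2 (0). At a threshold of 2-fold, 0 of the 10 genes passed for daf-2 over daf-16;daf-2 and over N2 at 25 °C and in the temperature pairs of all 5 genotypes. Over all 16085 genes, 1136 were higher and 819 lower in the first of these pairs, and 1501 higher and 1492 lower in the second. In the temperature pairs between 1067 and 2138 were higher and between 526 and 1083 lower. For math-33 over N2 at 25 °C, pdi-2 still passed as lower, beside 1151 of all genes. Summing the transcripts of a symbol gave 1 gene, pdi-2, for daf-2 over daf-16;daf-2 at 15 °C, beside 2067 higher and 2157 lower of all 16159 genes so summed. Centring gave 2, crt-1 and hsp-3, in math-33 against N2 at 15 °C and 2, atf-6 and pek-1, between 25 and 15 °C in N2, where quantile normalization also gave 2. Over all 16085 genes, centring put 2312 higher and 2751 lower past the fold in the math-33 against N2 pair. In the N2 temperature pair it put 2615 higher and 3270 lower, and quantile normalization 2677 and 2989. In the daf-16;daf-2 temperature pair, where 3 genes passed, centring left hsp-4 and added pek-1 as lower, and quantile normalization left hsp-4 and xbp-1 and added pek-1. Of all genes in that pair, 2723 were higher and 2546 lower after centring, and 2761 and 2533 after quantile normalization. The cause of these changes was not tested. The temperature fit has genotype as a term and so pairs the 25 and 15 °C libraries within the 5 genotypes; the labels give no replicate numbers to pair by. Depth limits atf-6 most, with 155 to 334 read pairs per library.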

Other observations

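The immunophilin gene fkb-7 had 68.2 FPKM in daf-2 at 25 °C, while the other 9 libraries lay between 3.41 and 19.4 FPKM; the fitted difference of daf-2 against N2 was 1.76 (SE 0.72, limma adjusted p = 0.356). The glycoprotein glucosyltransferase gene uggt-2 had 2.73 FPKM in math-33, 5.26 in daf-2;math-33, 1.34 in daf-2, 2.96 in daf-16;daf-2 and 3.64 in N2 at 25 °C. At 15 °C uggt-2 had 3.41 FPKM in math-33, 1.33 in daf-2;math-33, 0.75 in daf-2, 1.04 in daf-16;daf-2 and 1.02 in N2. Its temperature difference was 0.75 (limma adjusted p = 0.0926), and it was higher at 25 °C in 4 of 5 genotypes. The prolyl hydroxylase gene phy-3 was higher at 25 °C in 5 of 5 genotypes, between 3.12 and 7.64 FPKM at 25 °C and between 0.37 and 2.63 FPKM at 15 °C. Of all genes, 22.6% were higher at 25 °C in all 5 genotypes, and 3.05% had every 25 °C library above every 15 °C library.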
